A study of Homo sapiens with 14 samples.

Results

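Replication licensing was followed through 10 genes, MCM2, MCM3, MCM4, MCM5, MCM6, MCM7, MCM10, CDC6, CDT1 and PCNA. They were matched by Ensembl ID among the 62757 genes counted in every library, and all 10 were found and passed the filter on low counts in each fit. RNA was sequenced from 14 libraries in 7 groups of 2, all from cells labelled as the human ovarian cancer lines OVCAR3 or A2780. OVCAR3-DDP and A2780-DDP are labelled as platinum-resistant derivatives, DDP being an abbreviation of cisplatin, and OVCAR3-WT and A2780-WT are taken as their parental lines from the same labels. In 3 more groups, all with the OVCAR3-DDP label, cells carried a short hairpin RNA: sh1 and sh2 target ADAR1, the main adenosine-to-inosine editor of double-stranded RNA, and shNC is taken here as the hairpin control. Drug dose, time on drug and whether a derivative is 1 clone are not stated in the labels. The labels do not say either that the replicates of a group came from separate cultures, and a p-value here speaks only of the spread between these libraries, which may be technical. More or fewer cells in S phase and more or less RNA per cell cannot be told apart in such bulk libraries.

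Before S phase, the origin recognition complex, CDC6 and CDT1 load the MCM2 to MCM7 proteins as a ring onto DNA, which licenses an origin to fire. In S phase MCM10, CDC45 and the GINS complex help turn the loaded ring into the replicative helicase, and PCNA is the sliding clamp that holds DNA polymerase on its template. Most of these genes are classical targets of the E2F transcription factors, which the retinoblastoma protein RB1 holds back until late G1, and geminin together with destruction of CDT1 prevents renewed licensing within the same cycle.

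E2F-type sequences in the promoters are shown because most of these genes are known as E2F targets. RefSeq promoter windows on GRCh38.p14, from 250 bases before to 50 after a transcription start, were found for 8 of the 10 genes (all but MCM4 and MCM5), 11 windows in all. The letters searched on both strands were TTTGGCGC, TTTGCCGC, TTTCGCGC and TTTCCCGC. At least 1 match stood in 7 of the 11 windows, 63.6%, and in 7 of the 8 genes. Of all 35116 promoter windows of that length, 1164, or 3.315%, held one. Each line below gives 30 bases around a match, 5′ to 3′ on the gene's strand, with the match in capitals; matches that overlap on opposite strands are joined.
MCM2 at chr3:127598404-127598433, plus strand: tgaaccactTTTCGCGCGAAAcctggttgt
MCM3 at chr6:52284898-52284927, minus strand: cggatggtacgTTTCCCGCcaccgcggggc
MCM3 at chr6:52284728-52284757, minus strand: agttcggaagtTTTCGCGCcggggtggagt
MCM6 at chr2:135876575-135876604, minus strand: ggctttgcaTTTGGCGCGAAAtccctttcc
MCM6 at chr2:135876513-135876542, minus strand: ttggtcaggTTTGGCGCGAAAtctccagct
MCM7 at chr7:100101566-100101595, minus strand: cagctcggaccGCGGGAAAcccggcgcctg
MCM7 at chr7:100101388-100101417, minus strand: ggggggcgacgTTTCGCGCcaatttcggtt
CDC6 at chr17:40287875-40287904, plus strand: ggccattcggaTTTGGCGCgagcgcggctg
CDT1 at chr16:88803743-88803772, plus strand: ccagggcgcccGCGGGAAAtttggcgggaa
PCNA at chr20:5126663-5126692, minus strand: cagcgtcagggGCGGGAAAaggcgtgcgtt

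MCM6 carried the same 12 letters, TTTGGCGCGAAA, at 2 places, with first bases 152 and 90 before its start. CDT1 and PCNA carried the same 8 letters, GCGGGAAA, 35 and 59 bases before theirs. In the MCM7 window nearest its start, the E2F-type match shares its last base with a CCAAT box, the letters CCAAT on either strand. CCAAT stood in 9 of the 11 windows, 81.8%, in 6 of the 8 genes, and in 34.614% of all windows. The letters TTTGAA and TTTAAA are those of the cell cycle homology region known from promoters of mitotic genes. They stood in 0 of the 11 windows of these 8 genes and in 23.989% of all windows. MCM10 had none of the E2F-type letters in its window and 2 CCAAT boxes. A match is a description of these letters only.

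Libraries held 20428538 to 49115255 counts assigned to genes, and each of the 10 genes had 661 to 25848 counts in a library. The target of the hairpins, ADAR, averaged 272 CPM (counts scaled to a common total of assigned counts) with sh1, 115 CPM with sh2 and 423 CPM with shNC. Markers went against 1 label. Summed levels of 12 ovarian carcinoma and epithelial genes were 540.3 to 577 CPM in the pair labelled OVCAR3-DDP, against 4045 to 4460 CPM in OVCAR3-WT, and 4920 to 5226 CPM in shNC, which carries the same resistant-line label. Of 11 genes of this list tested against OVCAR3-WT, 10 were lower and 1 higher in that pair at an edgeR adjusted p below 0.05. Across all genes tested 35.2% were lower and 33.4% higher. Among the lower ones, the keratin KRT7 was at 0.246 CPM in the pair labelled OVCAR3-DDP, against 1083 CPM in OVCAR3-WT. In the same order, 8 neural genes summed to 221 to 227 CPM against 4.23 to 4.68 CPM, with 4 of 6 tested higher and 2 lower. In both A2780 groups the same 12 epithelial genes summed to 198 to 307 CPM, with MUC16 at 0 in both and KRT7 at 0 in A2780-WT. The 8 neural genes summed to 122 to 123 CPM in A2780-WT, 193 to 198 CPM in A2780-DDP and 8.90 to 10.6 CPM in shNC. Leukocyte and endothelial markers summed to at most 2.95 CPM in any library, and 7 fibroblast genes to 79.4 to 640.1 CPM. Values given for the pair labelled OVCAR3-DDP therefore describe the 2 libraries so labelled, and they are set beside shNC.

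Across all 7 groups the subunit gene MCM2 ranged most among the helicase genes, with 734 ± 8.25 CPM in the pair labelled OVCAR3-DDP as its highest mean and 135 ± 0.638 CPM in A2780-WT as its lowest (SD, n = 2). The highest group was the pair labelled OVCAR3-DDP for MCM2, MCM3, MCM4, MCM5, MCM10 and CDT1, OVCAR3-WT for MCM6 and PCNA, sh1 for MCM7 and sh2 for CDC6. A2780-WT was the lowest group for MCM2, MCM4, MCM5, MCM7, CDC6 and CDT1. The lowest group was shNC for MCM6 and MCM10, and sh1 for MCM3 and PCNA. Neighbours in these orders often overlapped. MCM7 in sh1, the pair labelled OVCAR3-DDP and shNC could not be ordered, nor could CDC6 in sh2, OVCAR3-WT and sh1, nor PCNA in OVCAR3-WT and the pair labelled OVCAR3-DDP, nor CDT1 in OVCAR3-WT and A2780-WT. The same held for MCM10 in A2780-WT and shNC and for PCNA in shNC and sh1. These orders are of CPM without TMM scaling, and some change with it. TMM-scaled MCM10, for instance, was 33.2 and 29.8 CPM in A2780-WT and 35.1 and 32.8 CPM in shNC.

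**Figure D1:**
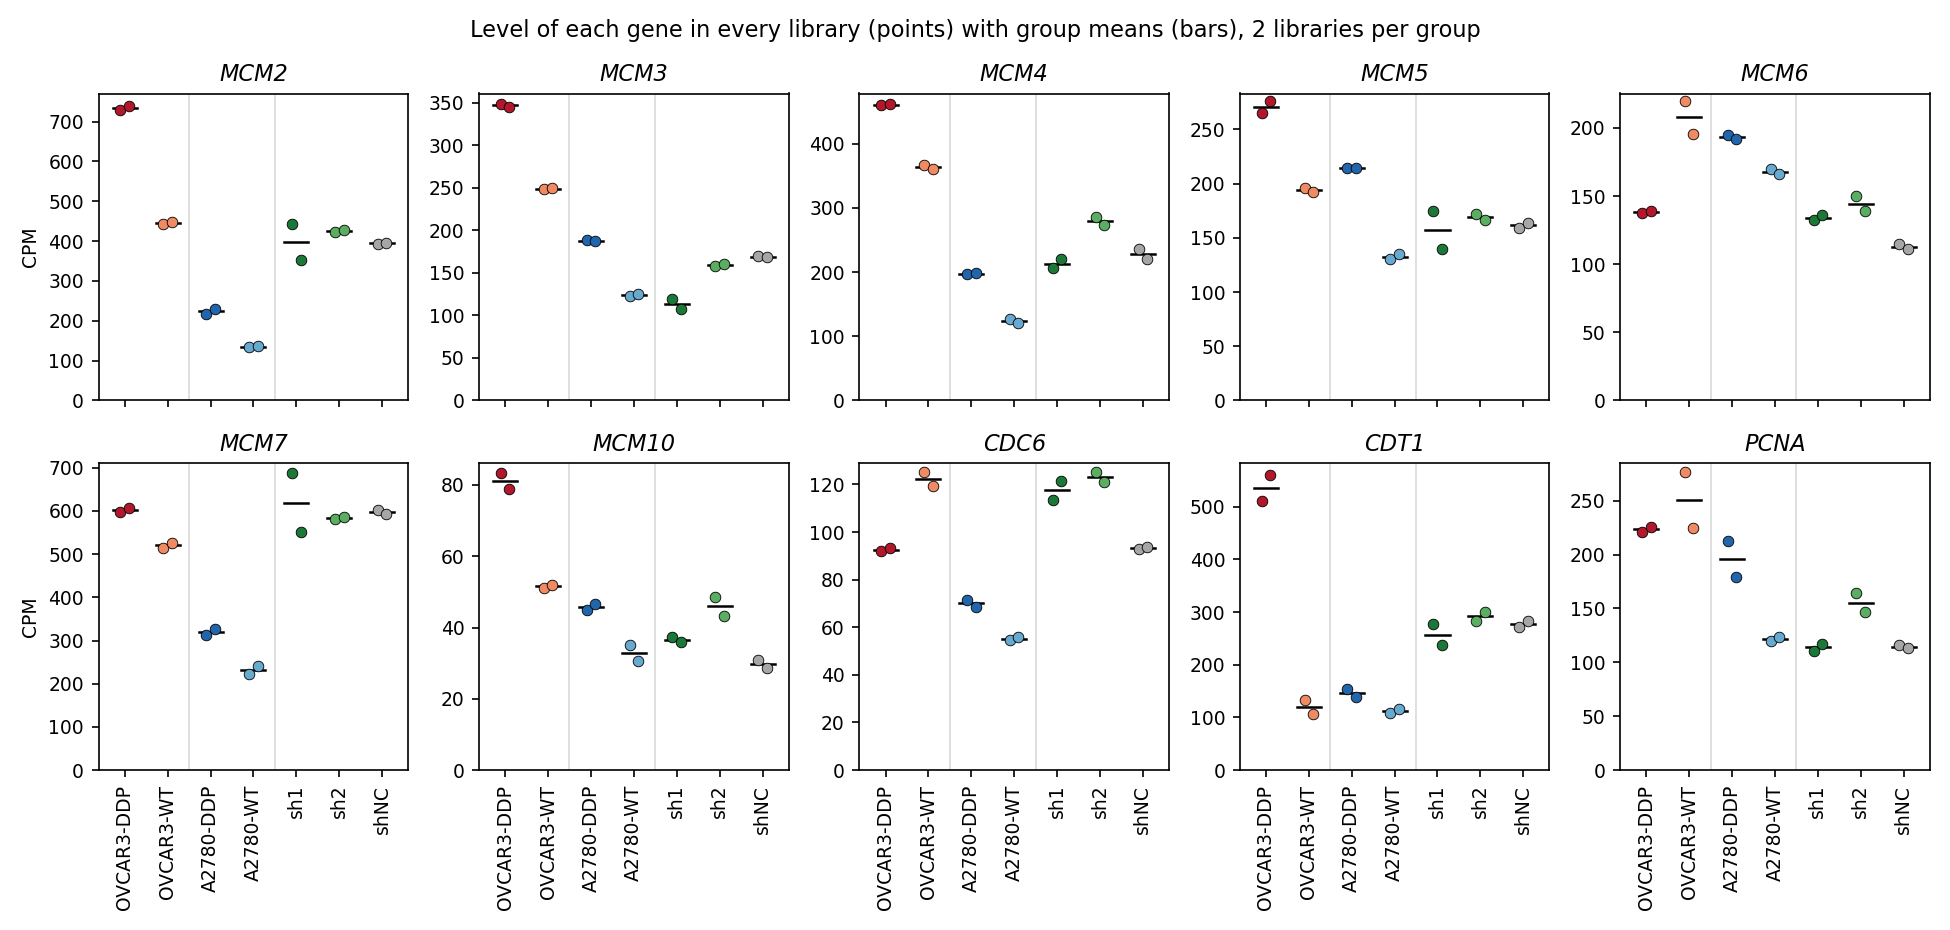
Level of each of the 10 genes in every library in CPM (y axis from 0, linear) by group (x axis); points are libraries and bars group means, 2 libraries per group. All 10 genes have both A2780-DDP points above both A2780-WT points, while in OVCAR3 the genes part, with CDT1 at 510.4 and 559.9 CPM in the pair labelled OVCAR3-DDP against 134 and 107 CPM in OVCAR3-WT.

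A2780-DDP held more of nearly the whole licensing set than A2780-WT. Of the 10 genes, 9 rose and 0 fell, and both A2780-DDP libraries lay above both A2780-WT libraries for all 10. Of 11172 genes with a mean of at least 10 CPM, 38.0% had both A2780-DDP libraries above both A2780-WT libraries. Across all genes tested, 35.3% passed at an edgeR adjusted p below 0.05 in this comparison, 18.0% higher and 17.3% lower. The median log2 fold change of the 10 genes was 0.55, against 0 for all genes. Every change was below 2-fold.

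Among the 6 subunit genes, MCM2 (ENSG00000073111.14, chromosome 3, 127598223 to 127622436, plus strand) had 216 and 231 CPM in the A2780-DDP libraries and 135 and 136 CPM in the A2780-WT libraries. MCM4 (ENSG00000104738.19, on chromosome 8) had 196 and 199 CPM in A2780-DDP and 126 and 121 CPM in A2780-WT. MCM5 (ENSG00000100297.16, chromosome 22, 35400063 to 35425430, plus strand) had 215 and 214 CPM in A2780-DDP and 130.3 and 135 CPM in A2780-WT. In each case the groups stood well apart and the libraries within a group close together. The fitted changes were 1.66-fold with a 95% interval of 1.47 to 1.88 for MCM2 (log2 0.73, SE 0.08, edgeR adjusted p = 1.57e-05), 1.61-fold with a 95% interval of 1.42 to 1.82 for MCM4 (log2 0.69, SE 0.08, edgeR adjusted p = 2.47e-05) and 1.63-fold with a 95% interval of 1.43 to 1.85 for MCM5 (log2 0.70, SE 0.09, edgeR adjusted p = 2.87e-05). MCM3 (ENSG00000112118.20, chromosome 6, 52264009 to 52284881, minus strand) stood at 189 and 187 CPM in A2780-DDP against 123 and 126 CPM in A2780-WT (log2 0.61, SE 0.08, edgeR adjusted p = 7.94e-05). MCM7 (ENSG00000166508.18, chromosome 7, 100092728 to 100101940, minus strand) stood at 312 and 326 CPM in A2780-DDP against 223 and 240.0 CPM in A2780-WT (log2 0.47, SE 0.09, edgeR adjusted p = 0.000804). The exception was MCM6 (ENSG00000076003.5, chromosome 2, 135839626 to 135876426, minus strand), with 195 and 192 CPM in A2780-DDP and 169.8 and 166 CPM in A2780-WT. Its libraries did not overlap either, but the difference was the smallest of the 10 and did not pass (log2 0.21, SE 0.09, edgeR adjusted p = 0.0851; 95% interval 0.02 to 0.41).

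The loaders and MCM10 rose as well. CDC6 (ENSG00000094804.12, chromosome 17, 40287633 to 40304657, plus strand), the ATPase that joins the origin recognition complex to recruit the ring, had 71.5 and 68.7 CPM in A2780-DDP and 54.5 and 55.9 CPM in A2780-WT (log2 0.36, SE 0.09, edgeR adjusted p = 0.00749). CDT1 (ENSG00000167513.9, chromosome 16, 88803213 to 88809258, plus strand), which escorts the ring to the origin, had 154 and 139 CPM in A2780-DDP and 108 and 117 CPM in A2780-WT (log2 0.39, SE 0.12, edgeR adjusted p = 0.0222). MCM10 (ENSG00000065328.17, chromosome 10, 13161554 to 13211104, plus strand), needed for the ring to start unwinding, had 45.0 and 46.7 CPM in A2780-DDP and 35.1 and 30.7 CPM in A2780-WT (log2 0.49, SE 0.10, edgeR adjusted p = 0.00137). None of the 3 overlapped between the groups. The clamp gene PCNA (ENSG00000132646.11, chromosome 20, 5114953 to 5126626, minus strand) had 213 and 179 CPM in A2780-DDP and 120.1 and 123 CPM in A2780-WT, 1.62-fold with a 95% interval of 1.36 to 1.93 (log2 0.70, SE 0.12, edgeR adjusted p = 0.000477). PCNA also has processed pseudogenes in the human genome, and how reads shared with them were counted was not tested. Coordinates are those of GENCODE 29 on GRCh38, where MCM2 exons overlap TPRA1 and AC023593.1, and MCM7 exons overlap AP4M1, on the opposite strand; with the strand setting unknown, reads of these pairs cannot be told apart. The call for CDC6 was lost without A2780_WT replicate 1 (edgeR adjusted p = 0.0693; 0.00205 to 0.0693 over its alternatives), and that for CDT1 without A2780_WT replicate 1 or A2780_DDP replicate 1 (0.137 and 0.108; 0.000496 to 0.137). MCM6 passed without OVCAR3_WT replicate 2 (edgeR adjusted p = 0.0359) and with the filter at a mean of 5 CPM (0.0392; 0.0359 to 0.203 over its alternatives).

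**Figure D2:**
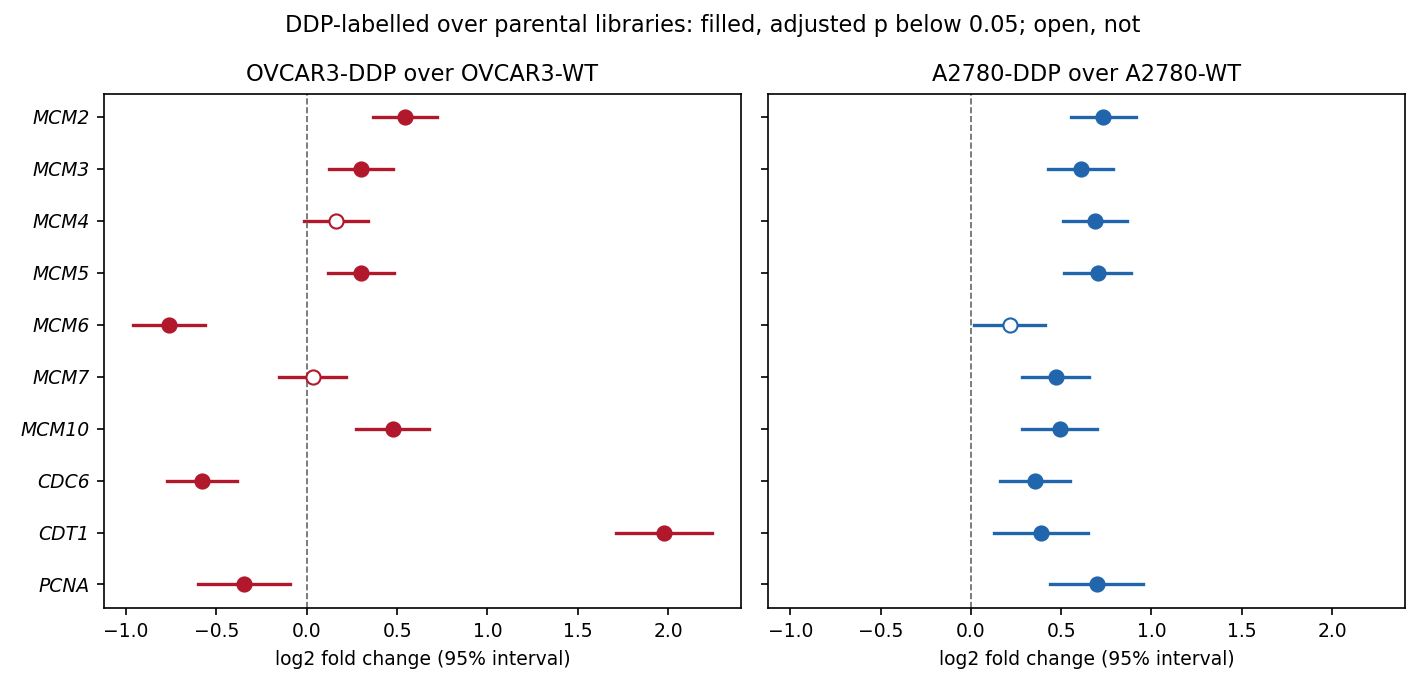
Log2 fold change (x axis) with its 95% interval from edgeR for each gene (y axis), OVCAR3-DDP over OVCAR3-WT on the left and A2780-DDP over A2780-WT on the right; filled points passed at adjusted p below 0.05 and open points did not. In A2780 all 10 points lie above 0, from 0.21 for MCM6 to 0.73 for MCM2, and in OVCAR3 they run from −0.76 for MCM6 to 1.98 for CDT1.

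More of the rest of the replication machinery rose than fell in A2780-DDP, but it did not rise as a block. Over 7 lists of licensing control, other MCM family, helicase activation, clamp, polymerase, fork protection and nucleotide supply genes, 22 of 72 rose and 12 fell, with a median log2 fold change of 0.03. Of all genes tested, 18.0% rose and 17.3% fell, with a median of 0. Among licensing control genes, 3 of 14 rose and 4 fell: MCMBP, a chaperone of free MCM subunits, rose (log2 0.37, SE 0.09, edgeR adjusted p = 0.00511), and ORC5 of the origin recognition complex fell (log2 −0.86, SE 0.13, edgeR adjusted p = 0.000151). Geminin (GMNN), named here for its role and outside the naming rule, had 33.3 and 40.0 CPM in A2780-DDP against 43.9 and 44.0 CPM in A2780-WT and did not pass (log2 −0.25, SE 0.11, edgeR adjusted p = 0.0899). Helicase activation genes parted, 4 of 13 higher and 5 lower. Within it the GINS subunit gene GINS1 rose (log2 0.76, SE 0.14, edgeR adjusted p = 0.000778), while DBF4B, an activator of the CDC7 kinase, fell (log2 −1.09, SE 0.10, edgeR adjusted p = 3.12e-06). Clamp partners leaned upward, 7 of 16 higher and 1 lower, led by DSCC1 of the alternative clamp loader (log2 0.89, SE 0.11, edgeR adjusted p = 3.97e-05) and the flap nuclease FEN1 (log2 0.86, SE 0.12, edgeR adjusted p = 9.14e-05). Nucleotide supply had 3 of 7 higher and 0 lower, among them the ribonucleotide reductase subunit RRM2 (log2 0.55, SE 0.08, edgeR adjusted p = 0.000209). Polymerase and RPA genes had 2 of 15 higher and 1 lower, led by the primase subunit gene PRIM2 (log2 0.75, SE 0.10, edgeR adjusted p = 7.67e-05), and fork protection 3 of 4 higher and 1 lower, led by TIPIN (log2 0.63, SE 0.16, edgeR adjusted p = 0.00859). The family members MCM8, MCM9 and MCMDC2, outside the naming rule here, had log2 fold changes of 0.30, −0.06 and −0.21 and did not pass (edgeR adjusted p 0.103, 0.78 and 0.399).

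In A2780-DDP, 2 regulators of E2F had larger fold changes than any of the 10 licensing genes. RB1 had 4.90 and 5.46 CPM in A2780-DDP, against 40.2 and 41.3 CPM in A2780-WT (log2 −2.97, SE 0.18, edgeR adjusted p = 3.91e-08). Cyclin E1 (CCNE1), which with CDK2 inactivates RB1, had 43.8 and 44.1 CPM in A2780-DDP and 10.9 and 12.7 CPM in A2780-WT (log2 1.90, SE 0.11, edgeR adjusted p = 3.66e-08). E2F and RB genes as a list split evenly, 4 of 15 higher and 4 lower. Genes of mitosis mostly fell: 10 of 12 fell and 1 rose, with a median of −0.78, where 17.3% of all genes fell and 18.0% rose. Among those that fell were the mitotic kinesin KIF11 (log2 −1.08, SE 0.09, edgeR adjusted p = 1.1e-06) and the proliferation marker MKI67 (log2 −1.08, SE 0.22, edgeR adjusted p = 0.00165). The 1 that rose was cyclin B1, CCNB1 (log2 0.34, SE 0.10, edgeR adjusted p = 0.0126). In the same libraries summed replication histone transcripts were 185.5 and 207.7 CPM in A2780-DDP against 54.3 and 56.3 CPM in A2780-WT, and mitochondrial messenger RNA was 2.31% and 2.55% of counts against 3.40% and 3.51%; their part in the licensing result was not tested. The same 9 genes passed with the pair labelled OVCAR3-DDP left out of the fit.

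**Figure D3:**
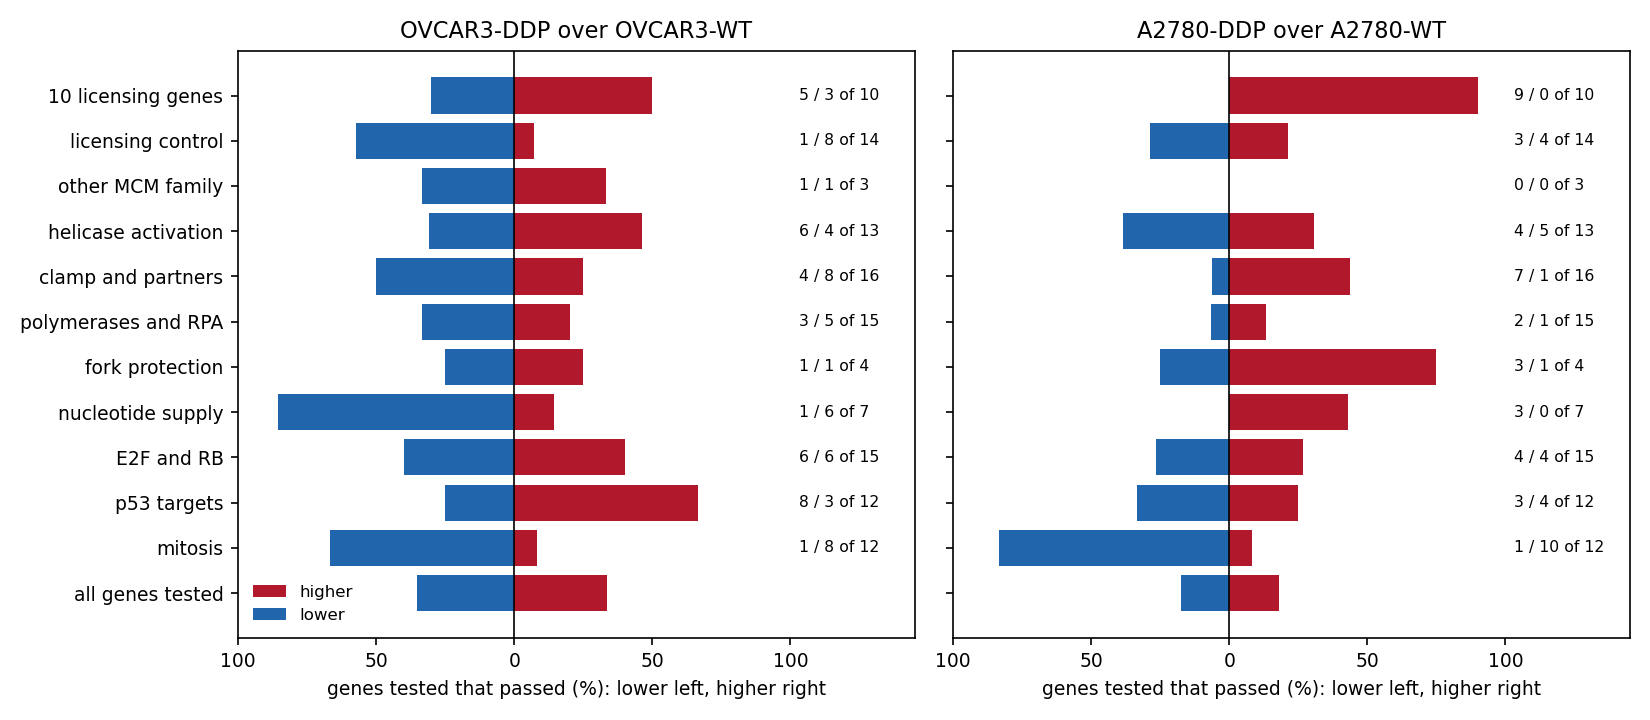
Share of genes tested in each list (y axis) that passed at adjusted p below 0.05, in percent (x axis; higher to the right in red, lower to the left in blue), OVCAR3-DDP over OVCAR3-WT on the left and A2780-DDP over A2780-WT on the right, with counts as higher / lower of tested and all genes tested in the last row. The 10 licensing genes are the row with 9 / 0 in A2780 and 5 / 3 in OVCAR3, and mitosis the row with 1 / 10 and 1 / 8.

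In the pair labelled OVCAR3-DDP the licensing set came apart. Of the 10 genes, 5 rose (CDT1, MCM2, MCM10, MCM3 and MCM5), 3 fell (MCM6, CDC6 and PCNA), and MCM4 and MCM7 did not pass. Here 68.5% of all genes passed, 33.4% higher and 35.2% lower, so a share of 8 in 10 is near the background. In CPM, both libraries labelled OVCAR3-DDP lay above both OVCAR3-WT libraries for 7 of the 10 genes and below for 2. Of 11172 genes with a mean of at least 10 CPM, 44.8% lay above and 44.3% below. A lack of overlap between these groups is therefore near the background too. The median log2 fold change was 0.23 for the 10 genes and −0.03 for all genes. Upper-quartile scaling moved the median of all genes from −0.03 to 0.07, and log2 CPM ratios without TMM scaling lay 0.18 above the fitted values of these genes, so small differences here depend on the scaling.

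CDT1 had the largest change of the 10. It stood at 510.4 and 559.9 CPM in the pair labelled OVCAR3-DDP and 134 and 107 CPM in OVCAR3-WT, a rise of 3.94-fold with a 95% interval of 3.27 to 4.73 (log2 1.98, SE 0.12, edgeR adjusted p = 9.6e-09). Its partner CDC6 moved the opposite way, at 91.9 and 93.3 CPM in the pair labelled OVCAR3-DDP and 125 and 119 CPM in OVCAR3-WT, or 0.669-fold with a 95% interval of 0.586 to 0.764 (log2 −0.58, SE 0.09, edgeR adjusted p = 6.04e-05). Neither pair of groups overlapped. CUL4A, a scaffold of the ubiquitin ligase that destroys CDT1 in S phase, had 92.8 and 95.7 CPM in the pair labelled OVCAR3-DDP and 327 and 336 CPM in OVCAR3-WT (log2 −1.99, SE 0.09, edgeR adjusted p = 3.21e-10). GMNN, whose protein binds and blocks CDT1, had 55.3 and 58.4 CPM against 57.4 and 60.4 CPM in the same order and did not pass (log2 −0.23, SE 0.11, edgeR adjusted p = 0.0689). In A2780-WT, CUL4A stood at 83.8 to 88.3 CPM and CDT1 at 108 and 117 CPM. The part of CUL4A and GMNN RNA in the CDT1 levels was not tested.

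The subunits of the ring parted as well. MCM2 had 729 and 740.2 CPM in the pair labelled OVCAR3-DDP and 443 and 447 CPM in OVCAR3-WT (log2 0.55, SE 0.08, edgeR adjusted p = 5.41e-05). MCM6 had 138 and 139 CPM in the pair labelled OVCAR3-DDP and 219.8 and 196 CPM in OVCAR3-WT, lower in both (log2 −0.76, SE 0.09, edgeR adjusted p = 6.15e-06). One subunit of the same ring was thus 1.46-fold higher and another at 0.589 of the parental level. MCM3 stood at 349 and 345 CPM against 248 and 249 CPM (log2 0.30, SE 0.08, edgeR adjusted p = 0.00533), and MCM5 at 265 and 276 CPM against 196 and 192 CPM (log2 0.30, SE 0.08, edgeR adjusted p = 0.0064), the pair labelled OVCAR3-DDP first. MCM4 was 460.3 and 461 CPM in the pair labelled OVCAR3-DDP and 366 and 361 CPM in OVCAR3-WT (log2 0.16, SE 0.08, edgeR adjusted p = 0.0918). Its libraries did not overlap, and it passed under 9 of 19 alternatives, among them DESeq2 size factors (edgeR adjusted p = 0.0383; 0.00541 to 0.264 over its alternatives) and without A2780_DDP replicate 1 or 2 (0.0181 and 0.0178). MCM7 was 598 and 606 CPM in the pair labelled OVCAR3-DDP and 514 and 526 CPM in OVCAR3-WT (log2 0.03, SE 0.08, edgeR adjusted p = 0.752; 95% interval −0.15 to 0.22). Its libraries did not overlap in CPM, and TMM scaling brought the fitted difference close to 0. MCM10 had 83.4 and 78.9 CPM in the pair labelled OVCAR3-DDP and 51.1 and 52.0 CPM in OVCAR3-WT (log2 0.48, SE 0.09, edgeR adjusted p = 0.000507). PCNA had 221 and 225 CPM in the pair labelled OVCAR3-DDP and 276 and 225 CPM in OVCAR3-WT, the 1 gene of the 10 whose groups overlapped (log2 −0.35, SE 0.12, edgeR adjusted p = 0.0182). That call was lost with upper-quartile scaling, with a filter at a mean of 5 CPM, with the compared groups fitted alone, and without any of 5 libraries: OVCAR3_WT replicate 1 (edgeR adjusted p = 0.185), either OVCAR3_DDP replicate (0.104 and 0.071) or either A2780_WT replicate (0.0814 and 0.0825), within 0.000473 to 0.185 over its alternatives. MCM5 was lost without OVCAR3_DDP replicate 2 (0.0707; 0.000471 to 0.0707).

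Around the 10 genes, 17 of 72 genes over the 7 replication lists rose and 33 fell in the pair labelled OVCAR3-DDP, where 33.4% of all genes rose and 35.2% fell, with a median log2 fold change of −0.23 against −0.03 for all genes. Licensing control had 8 of 14 lower and 1 higher. The higher one was ORC6 of the origin recognition complex (log2 0.51, SE 0.11, edgeR adjusted p = 0.00075). MCMBP was among the lower ones (log2 −0.87, SE 0.09, edgeR adjusted p = 1.17e-06). Helicase activation had 6 of 13 higher and 4 lower: GINS1 rose (log2 0.54, SE 0.14, edgeR adjusted p = 0.00313), GINS2 of the same complex fell (log2 −0.89, SE 0.12, edgeR adjusted p = 1.92e-05), and DBF4, the activator of CDC7, fell (log2 −1.71, SE 0.10, edgeR adjusted p = 6.34e-09). Clamp partners had 8 of 16 lower, with the PCNA-binding factor PCLAF at 7.57 and 9.41 CPM in the pair labelled OVCAR3-DDP against 50.8 and 59.2 CPM in OVCAR3-WT (log2 −2.87, SE 0.15, edgeR adjusted p = 1.27e-09), and 4 higher. Polymerases and RPA split, 3 of 15 higher and 5 lower, the polymerase alpha catalytic subunit gene POLA1 lower (log2 −2.15, SE 0.10, edgeR adjusted p = 6.53e-10) and the single-strand binding subunit gene RPA2 higher (log2 1.52, SE 0.10, edgeR adjusted p = 1.62e-08). Fork protection had 1 of 4 higher and 1 lower, the checkpoint mediator gene CLSPN (log2 −1.48, SE 0.13, edgeR adjusted p = 3.67e-07). Nucleotide supply fell in 6 of 7, among them RRM1 (log2 −1.57, SE 0.10, edgeR adjusted p = 1.08e-08). MCM9 rose (log2 1.01, SE 0.13, edgeR adjusted p = 1.76e-05). In the p53 target list 8 of 12 rose and 3 fell. In the E2F and RB list, 6 of 15 rose and 6 fell. Summed replication histones were 47.6 to 53.1 CPM in these libraries against 172 to 173 CPM in OVCAR3-WT. Mitosis genes fell in 8 of 12, the kinase PLK1 being higher (log2 0.60, SE 0.11, edgeR adjusted p = 0.000226). The part of the marker, histone and mitosis differences in these results was not tested.

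The comparisons labelled OVCAR3 and A2780 were set against each other directly, as the log2 change in the first minus that in the second. Since the first rests on the pair whose markers went against its label, a change within OVCAR3 and a difference between kinds of cells cannot be told apart in these values. It passed for 8 of the 10 genes, 1 higher and 7 lower, where 53.8% of all genes passed, 26.9% higher and 26.9% lower. The difference was positive for CDT1 (log2 1.59, SE 0.17, edgeR adjusted p = 3.7e-06). It was negative for PCNA (log2 −1.04, SE 0.17, edgeR adjusted p = 0.00014), MCM6 (log2 −0.98, SE 0.13, edgeR adjusted p = 2.57e-05) and CDC6 (log2 −0.94, SE 0.13, edgeR adjusted p = 3.23e-05), and PCNA and CDC6 had opposite signs in the comparisons, each past the threshold in both. MCM4 (−0.53), MCM7 (−0.44), MCM5 (−0.40) and MCM3 (−0.31) also had negative differences, the last at an edgeR adjusted p of 0.0405 that was lost under 14 alternatives (0.0198 to 0.245 over all of them), including the omission of any single library other than OVCAR3_WT replicate 2 (for instance 0.245 without A2780_WT replicate 1). MCM2 (log2 −0.19, SE 0.12, edgeR adjusted p = 0.198; 95% interval −0.44 to 0.06) and MCM10 (log2 −0.01, SE 0.13, edgeR adjusted p = 0.982; −0.30 to 0.27) did not pass, and both rose in each comparison. Without A2780_WT replicate 1, 5 genes passed. MCM5 was lost without that library (0.116), without OVCAR3_DDP replicate 1 (0.0758), with upper-quartile scaling (0.0521) and with all 14 libraries in the fit (0.0628), and MCM7 without A2780_WT replicate 1 (0.094), each an edgeR adjusted p.

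The hairpin comparisons ask whether licensing genes changed when ADAR1 was lowered in cells with the resistant label. Most did not pass. With sh1, MCM3 was the 1 gene of the 10 to pass and fell, and with sh2, MCM10 was the 1 gene to pass and rose. Across all genes 3.81% passed with sh1, 1.96% higher and 1.85% lower, and 14.3% with sh2, 7.23% higher and 7.04% lower, so 1 gene in 10 is near the background for both. The 2 comparisons share the shNC libraries.

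MCM3 had 119 and 107 CPM with sh1, 158 and 160.0 CPM with sh2 and 170.1 and 168 CPM with shNC. The sh1 libraries lay below both other groups, and the sh2 libraries lay just below shNC. The log2 change was −0.65 with sh1 (SE 0.11; edgeR adjusted p = 0.00287) and −0.19 with sh2 (SE 0.11; edgeR adjusted p = 0.258). Set against each other directly, MCM3 was higher with sh2 than with sh1 (log2 0.46, SE 0.11, edgeR adjusted p = 0.0372), the 1 member of the 10 to pass where 1.92% of all genes did, 0.667% higher and 1.25% lower. ADAR itself was lower with sh2 than with sh1, so MCM3 was lowest in the group with the milder knockdown.

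MCM10 had 37.2 and 35.9 CPM with sh1, 48.6 and 43.3 CPM with sh2 and 30.9 and 28.8 CPM with shNC. Both hairpin groups lay above shNC, sh2 further. The log2 change was 0.51 with sh2 (SE 0.13; edgeR adjusted p = 0.0141) and 0.22 with sh1 (SE 0.13; edgeR adjusted p = 0.39). PCNA had 111 and 117 CPM with sh1, 164 and 147 CPM with sh2 and 116 and 113 CPM with shNC. The sh2 libraries stood apart, but the change missed the threshold (log2 0.33, SE 0.11, edgeR adjusted p = 0.0544), as did the difference of sh2 from sh1 (log2 0.42, SE 0.11, edgeR adjusted p = 0.0623). CDC6 had 114 and 122 CPM with sh1, 125 and 121 CPM with sh2 and 92.8 and 93.6 CPM with shNC, above the control in all 4 knockdown libraries. Its log2 change was 0.26 with sh1 (edgeR adjusted p = 0.211) and 0.29 with sh2 (edgeR adjusted p = 0.0875).

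The other 6 genes gave log2 values between −0.18 (CDT1) and 0.17 (MCM6) with sh1 and between −0.14 (MCM7) and 0.25 (MCM6) with sh2. MCM2 (442 and 353 CPM with sh1, 424 and 427 CPM with sh2, 393 and 395 CPM with shNC) and MCM7 (687 and 551 CPM, 581 and 587 CPM and 602 and 593 CPM in the same order) were alike in that the 2 sh1 libraries lay on both sides of shNC. CDT1, the gene that differed most between the OVCAR3 labels, had 277 and 238 CPM with sh1, 284 and 299.9 CPM with sh2 and 272 and 282 CPM with shNC. The 95% interval of its log2 change was −0.42 to 0.05 with sh1 and −0.26 to 0.20 with sh2. Averaged over both hairpins, MCM3 was lower (log2 −0.42, SE 0.10, edgeR adjusted p = 0.00823) and MCM10 higher (log2 0.37, SE 0.12, edgeR adjusted p = 0.0452), 2 of 10 where 11.9% of all genes passed, 5.94% higher and 5.98% lower.

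Single libraries decided the hairpin counts. With sh1, the call of MCM3 was lost without OVCAR3_DDP_shNC replicate 2 (edgeR adjusted p 0.0603; 1.73e-07 to 0.0603 over its alternatives), and 6 genes passed without OVCAR3_DDP_sh1 replicate 1, 1 higher and 5 lower. With sh2, the call of MCM10 was lost without OVCAR3_DDP_shNC replicate 1, OVCAR3_DDP_shNC replicate 2 or OVCAR3_DDP_sh2 replicate 1 (edgeR adjusted p 0.118, 0.191 and 0.269; 0.000115 to 0.269), and 6 genes, 5 higher and 1 lower, passed without either OVCAR3_DDP_sh1 replicate. For the mean of both hairpins, neither call held without OVCAR3_DDP_shNC replicate 1, OVCAR3_DDP_shNC replicate 2 or OVCAR3_DDP_sh2 replicate 1, 1 gene passed without OVCAR3_DDP_sh2 replicate 2, 7 without OVCAR3_DDP_sh1 replicate 1 and 4 without OVCAR3_DDP_sh1 replicate 2. MCM3 did not pass in sh2 over sh1 without any 1 of the OVCAR3_DDP_shNC or OVCAR3_DDP_sh2 libraries, and 4 genes passed there without either OVCAR3_DDP_sh1 replicate. The sh1 replicates differed more than most pairs, with a chi-square per gene of 21.1 against 4.87 for sh2 and 5.01 for shNC. Outside the hairpin groups the OVCAR3-WT pair differed more, at 31.5, and the A2780-DDP pair stood at 18.0.

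**Figure D4:**
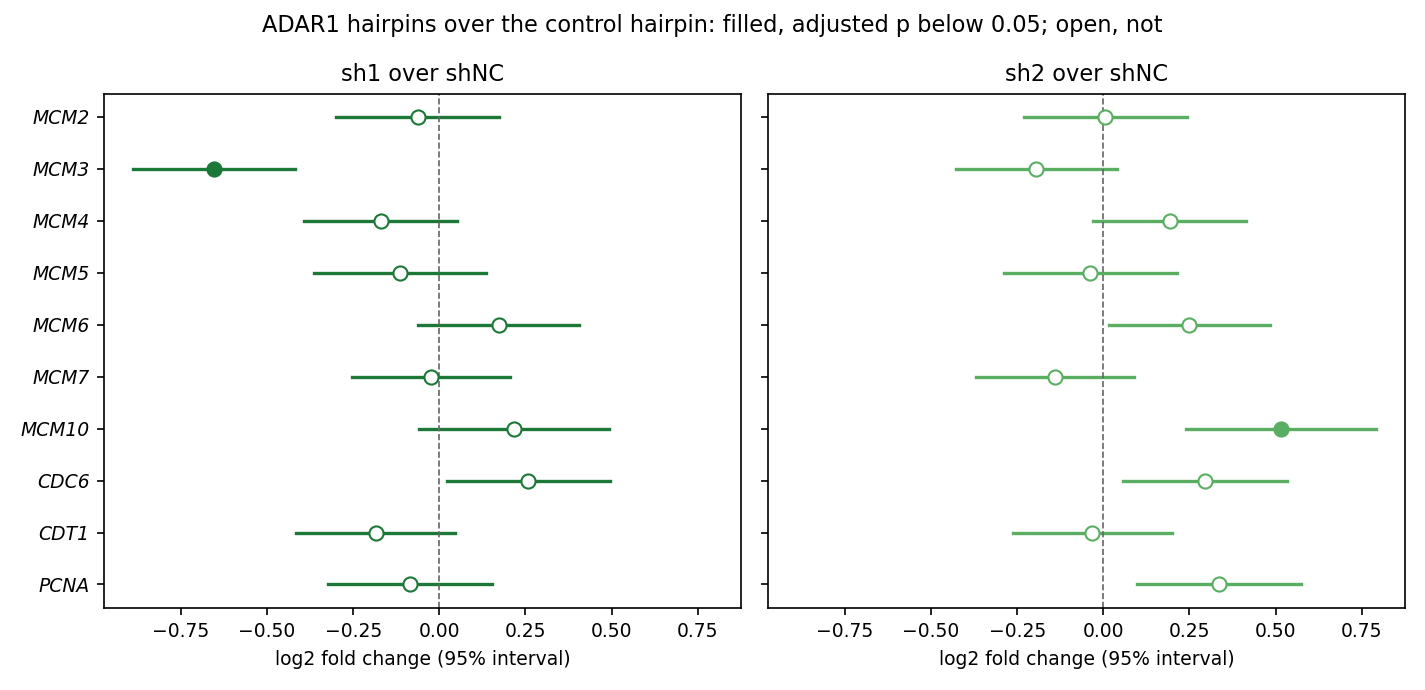
Log2 fold change (x axis) with its 95% interval from edgeR for each gene (y axis), sh1 over shNC on the left and sh2 over shNC on the right; filled points passed at adjusted p below 0.05 and open points did not. MCM3 at −0.65 with sh1 and MCM10 at 0.51 with sh2 are the filled points, and the others lie between −0.19 and 0.33.

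Other licensing genes rose with sh2. In the licensing control list 6 of 14 rose and 0 fell, and the 7 replication lists together had 17 of 71 higher and 2 lower, where 7.23% and 7.04% of all genes were. Origin recognition subunits led: ORC5 had 20.9 and 22.5 CPM with sh2 and 11.6 and 11.9 CPM with shNC (log2 0.77, SE 0.16, edgeR adjusted p = 0.00371), and ORC2 rose too (log2 0.65, SE 0.15, edgeR adjusted p = 0.00805). ORC5 rose with sh1 as well (log2 0.75, SE 0.16, edgeR adjusted p = 0.0116), the 1 licensing control gene of 14 to do so, and over the 7 lists sh1 had 1 of 71 higher and 1 lower. CDC45, the partner of MCM in the active helicase, rose with sh2 (log2 0.42, SE 0.13, edgeR adjusted p = 0.0423), as did PCLAF (log2 0.67, SE 0.17, edgeR adjusted p = 0.0115) and RBL1, a relative of RB1 (log2 1.08, SE 0.15, edgeR adjusted p = 0.000234). The polymerase delta subunit gene POLD1 fell with sh2 (log2 −0.57, SE 0.14, edgeR adjusted p = 0.0106). GMNN had 52.1 and 62.5 CPM with sh1, 68.3 and 73.6 CPM with sh2 and 50.4 and 51.9 CPM with shNC, and did not pass with sh2 (log2 0.37, SE 0.13, edgeR adjusted p = 0.0583). In the sh2 libraries mitochondrial messenger RNA was 0.726% and 0.777% of counts against 0.925% and 0.947% in shNC, and its part in these values was not tested.

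Before any resistance label, the lines themselves differed in licensing genes. Of the 10 genes, 9 were higher in OVCAR3-WT than in A2780-WT and 0 lower, where 66.0% of all genes passed, 32.3% higher and 33.7% lower. MCM2 led, with 443 and 447 CPM in OVCAR3-WT and 135 and 136 CPM in A2780-WT (log2 1.77, SE 0.08, edgeR adjusted p = 7.37e-10, 95% interval 1.58 to 1.95). MCM4 had 366 and 361 CPM in OVCAR3-WT and 126 and 121 CPM in A2780-WT, 3.05-fold with a 95% interval of 2.69 to 3.46. Both subunits stood far apart between the lines, with close replicates. The log2 difference was 1.22 for MCM7, 1.2 for CDC6, 1.09 for PCNA, 1.05 for MCM3, 0.70 for MCM10 and 0.60 for MCM5. MCM6 was the smallest that passed, at 1.28-fold with a 95% interval of 1.12 to 1.47 (log2 0.36, SE 0.09, edgeR adjusted p = 0.00348). CDT1 overlapped between the parental lines, with 134 and 107 CPM in OVCAR3-WT and 108 and 117 CPM in A2780-WT (log2 0.14, SE 0.12, edgeR adjusted p = 0.309; 95% interval −0.12 to 0.40). It passed without OVCAR3_WT replicate 2 (edgeR adjusted p = 0.0174; 0.0174 to 0.801 over its alternatives), while its sign turned without OVCAR3_WT replicate 1 (log2 −0.04). Over the 7 replication lists 41 of 72 genes were higher in OVCAR3-WT and 10 lower. RB1 was lower in OVCAR3-WT (11.4 and 15.1 CPM, against 40.2 and 41.3 CPM in A2780-WT; log2 −1.57, SE 0.16, edgeR adjusted p = 1.7e-06) and TFDP1, the dimer partner of E2F proteins, higher (log2 1.90, SE 0.10, edgeR adjusted p = 1.14e-09). The E2F and RB list, which holds both, was split, with 6 of 15 genes higher in OVCAR3-WT, 7 lower and a median log2 difference of −0.11. With 1 pair of libraries per line, the line and anything else that set these cultures apart cannot be told apart.

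The hairpin control was set beside both other OVCAR3 groups, since it shares the resistant label with one and its marker levels with the other. Against OVCAR3-WT, 7 of the 10 genes passed, 2 higher and 5 lower (51.5% of all genes, 25.1% higher and 26.5% lower). Against the pair labelled OVCAR3-DDP, 9 passed, 2 higher and 7 lower (69.7%, 32.9% higher and 36.8% lower). The hairpin and anything else that set these cultures apart cannot be told apart from resistance in either. Mitochondrial messenger RNA, at 0.925% and 0.947% of counts in shNC, was 2.5% and 2.72% in OVCAR3-WT and 2.42% and 2.43% in the pair labelled OVCAR3-DDP, and its part in the values was not tested.

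CDT1 was higher than parental in both groups with the resistant label. It had 272 and 282 CPM in shNC, against 134 and 107 CPM in OVCAR3-WT, 2.63-fold with a 95% interval of 2.21 to 3.13 (log2 1.40, SE 0.12, edgeR adjusted p = 9.55e-10). Between shNC and the pair labelled OVCAR3-DDP it was lower in shNC (log2 −0.66, SE 0.12, edgeR adjusted p = 3.42e-05). MCM6 was likewise lower than parental in both, with 115 and 111 CPM in shNC (log2 −0.69, SE 0.10, edgeR adjusted p = 3.49e-06). Between shNC and the pair labelled OVCAR3-DDP the fitted log2 difference of MCM6 was −0.003 (SE 0.10, edgeR adjusted p = 0.99, 95% interval −0.21 to 0.21). In CPM without TMM scaling both shNC libraries lay below those labelled OVCAR3-DDP, at 138 and 139 CPM, with a log2 ratio of −0.29. The fitted value near 0 for MCM6 thus rests on the scaling. PCNA stood at 116 and 113 CPM in shNC, against 276 and 225 CPM in OVCAR3-WT (log2 −0.94, SE 0.12, edgeR adjusted p = 3.24e-07). MCM10 and MCM3, which were higher than parental in the pair labelled OVCAR3-DDP, were lower than parental in shNC. MCM10 had 30.9 and 28.8 CPM in shNC, lower than in OVCAR3-WT (log2 −0.60, SE 0.11, edgeR adjusted p = 0.000112) and in the pair labelled OVCAR3-DDP as well (log2 −1.15, SE 0.12, edgeR adjusted p = 2.98e-09). MCM3 had 170.1 and 168 CPM in shNC, lower than in OVCAR3-WT (log2 −0.37, SE 0.10, edgeR adjusted p = 0.00306) and in the pair labelled OVCAR3-DDP as well (log2 −0.74, SE 0.10, edgeR adjusted p = 3.51e-07). MCM4 was lower as well (−0.49 against OVCAR3-WT, edgeR adjusted p = 0.000115), and MCM7 higher (0.39, edgeR adjusted p = 0.00342). MCM2, with 393 and 395 CPM in shNC, and MCM5, with 159 and 163 CPM, did not pass against OVCAR3-WT (log2 0.01, SE 0.11, edgeR adjusted p = 0.945 for MCM2 and log2 −0.08, SE 0.11, edgeR adjusted p = 0.595 for MCM5). CDC6 did not pass either (log2 −0.20, SE 0.10, edgeR adjusted p = 0.0959) except without OVCAR3_DDP_sh1 replicate 1 (edgeR adjusted p = 0.05; 0.05 to 0.342). Against the pair labelled OVCAR3-DDP, shNC was also lower in MCM4 (log2 −0.73), PCNA (−0.67), MCM2 (−0.61) and MCM5 (−0.45). In the same comparison, MCM7 (log2 0.28, SE 0.11, edgeR adjusted p = 0.0215) lost its call without any 1 of the 4 libraries compared (edgeR adjusted p 0.12 and 0.0793 without OVCAR3_DDP replicates 1 and 2, 0.0787 and 0.0863 without OVCAR3_DDP_shNC replicates 1 and 2), and CDC6 (log2 0.30, SE 0.10, edgeR adjusted p = 0.0109) lost it without either OVCAR3_DDP replicate (0.0885 and 0.0522) or OVCAR3_DDP_shNC replicate 2 (0.0821). For both genes the shNC libraries and those labelled OVCAR3-DDP overlapped in CPM. The log2 CPM ratios without TMM scaling were −0.00978 for MCM7 and 0.00918 for CDC6, and over the 10 genes such ratios minus the fitted values had a median of −0.29, so both calls rest on the scaling.

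The MCM2 to MCM7 proteins enter the ring in equal numbers, and their transcripts were compared per length for that reason, as CPM per kb of exon in the union of annotated transcripts. MCM7 was the highest subunit gene in 6 of the 7 groups and MCM2 in the pair labelled OVCAR3-DDP. In those libraries MCM2 stood at 149.8 ± 1.68 CPM per kb and MCM6, the lowest, at 33.6 ± 0.310 CPM per kb, a ratio of 4.46. In OVCAR3-WT MCM7 stood at 119 ± 2.03 CPM per kb and MCM5, the lowest, at 26.4 ± 0.311 CPM per kb, a ratio of 4.48. The genes at both ends differed. With the longest transcript as the length, the ratio of highest to lowest was 5.47 in the pair labelled OVCAR3-DDP and 3.996 in OVCAR3-WT.

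A2780 was more even. There MCM7 over MCM4 gave 2.56 in A2780-DDP (72.7 and 28.3 CPM per kb) and 2.98 in A2780-WT (52.8 and 17.7 CPM per kb). In the hairpin groups MCM7 over MCM5 gave 6.59 with sh1, 5.77 with sh2 and 6.19 with shNC. The 6 subunit genes together summed to 518.6 CPM per kb in the pair labelled OVCAR3-DDP against 407 in OVCAR3-WT, and to 274 in A2780-DDP against 191 in A2780-WT. The sums were 338 with sh1 and 362 with sh2 against 345 with shNC. These sums are without TMM scaling. Log2 CPM ratios of the 10 genes had a median of 0.18 above the fitted values for OVCAR3-DDP over OVCAR3-WT. That median was 0.08 for sh1 and 0.11 for sh2 over shNC, and −0.01 for A2780-DDP over A2780-WT. The order of the hairpin sums therefore depends on the scaling. CDC6 and MCM10 were the lowest of the 10 genes per kb in every group, and CDT1 was the highest of the 10 in the pair labelled OVCAR3-DDP, at 160.4 ± 10.5 CPM per kb. With the longest transcript as the length MCM2 was the highest of the 10 there, and the ratios ran from 2.21 in A2780-DDP to 6.41 in shNC. Which subunit gene was lowest also depended on the length. With the longest transcript MCM5 stood just below MCM4 in A2780-WT (28.9 and 29.5 CPM per kb) and in A2780-DDP (46.7 and 47.2 CPM per kb). In shNC MCM6 was then the lowest, at 30.2 CPM per kb against 35.1 for MCM5. Exon overlap with other genes, as stated above, can affect the counts of MCM2 and MCM7, and in which direction was not tested.

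**Figure D5:**
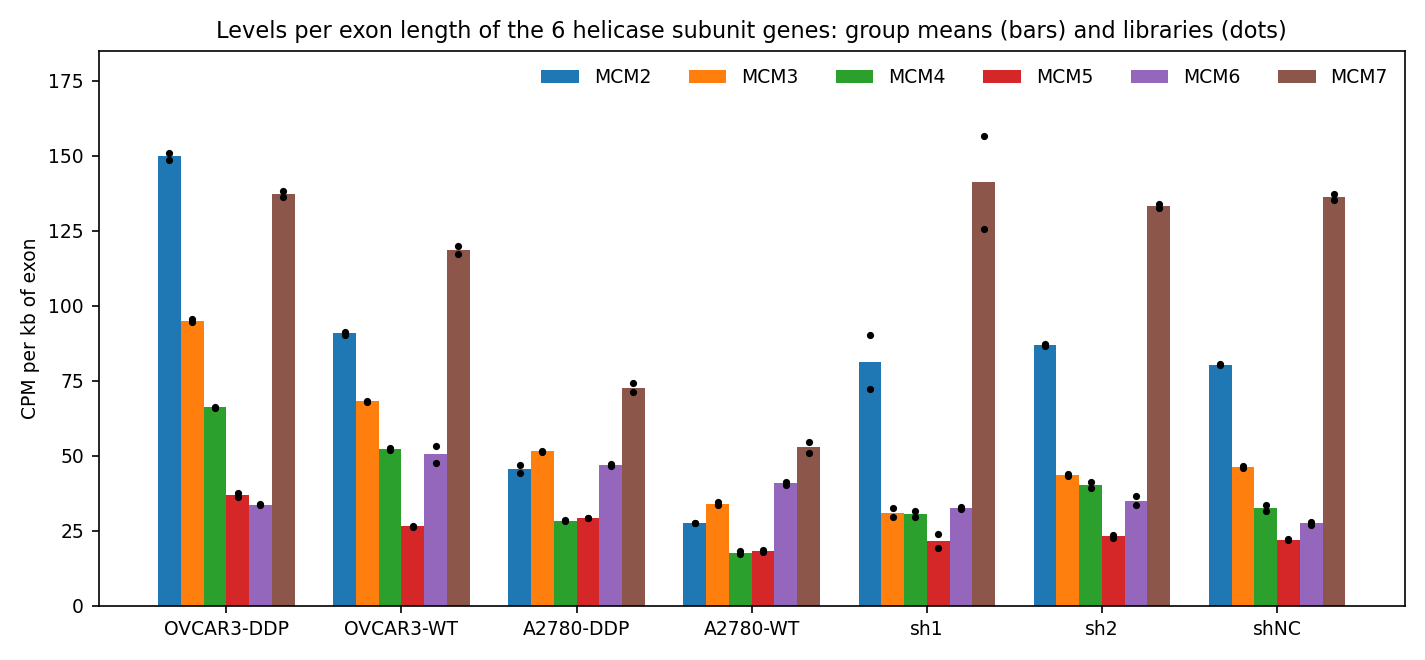
Level per exon length of the 6 helicase subunit genes (y axis, CPM per kb of exon, from 0) in each group (x axis); bars are group means and dots the 2 libraries. MCM7 is the tallest bar in all groups but OVCAR3-DDP, where MCM2 at 149.8 CPM per kb is, and MCM6 falls to 33.6 CPM per kb there.

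Across the 14 libraries the 10 genes varied together to different degrees. Pearson's r of log2(CPM + 1) had a median of 0.583 over the 45 pairs, 10 pairs lay above 0.8 and 5 below 0. These values are a description of 14 libraries in 7 groups that share lines and labels. MCM2 with MCM4 gave the highest value, 0.924, and MCM6 with CDT1 the lowest, −0.715. All 5 negative pairs held MCM6, its partners being CDT1, MCM7, MCM2, CDC6 and MCM4. MCM6 gave 0.642 with PCNA and 0.252 with MCM10, and among the pairs without MCM6 the lowest values were 0.0013 for CDT1 with PCNA and 0.074 for MCM7 with PCNA. Against the mean of the other 9 genes, MCM4 had an r of 0.977, MCM2 0.910 and MCM6 −0.170. MCM6 and MCM2 both carry an E2F-type match of the form printed above, MCM6 at 2 places.

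Among 11162 other genes with a mean of at least 10 CPM, those most like the mean profile of the 10 over the 14 libraries were the homeobox gene IRX3 (r = 0.985), the kinase FYN (0.976), ENSG00000285600 (0.974) and the chromatin factor DPF1 (0.967). The corepressor TLE4 (0.964), the cofilin kinase LIMK1 (0.962), the forkhead factor FOXF2 (0.960) and the bZIP factor NFE2L3 (0.959) followed. Each r is over the same 14 libraries, which share lines and labels, and describes likeness of level only.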

How the data were processed

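Total RNA was extracted with Trizol, per the labels, and the deposited files hold raw counts per gene that the authors made with HTSeq, 1 file per library. Per the submitters' processing notes, the tools were STAR 2.7.8a, HTSeq 2.0.3, SAMtools and FastQC 0.11.9, and the build was GRCh38.p13. How strand was treated, whether reads were paired, and which annotation was counted were not given in the sources used here. The 5 summary lines were kept out of library sizes and tests; reads without a feature were 48.7% to 50.0% of the total, ambiguous reads 2.09% to 2.48% and multiply aligned reads 2.36% to 4.99%. Gene names for 62639 of 62757 IDs, and coordinates and exon lengths, came from GENCODE 29.

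The 10 genes, the gene lists and the tests were chosen with earlier results of these data known. Levels are CPM over assigned counts. Changes were tested on the counts with edgeR 4.0.16 (limma 3.58.1, R 4.3.3): filterByExpr at a minimum count of 10, TMM scaling, the quasi-likelihood test and Benjamini-Hochberg adjustment over all genes tested at 0.05. The parental and DDP libraries were fitted together (8 libraries, 23031 genes, 4 residual degrees of freedom), the hairpin libraries together (6 libraries, 19044 genes, 3 degrees of freedom), and comparisons of shNC with other groups over all 14 libraries (24193 genes, 7 degrees of freedom). The biological coefficient of variation was 0.104, 0.106 and 0.106 in these fits. Alternatives were DESeq2 1.42.0 size factors and its Wald test, upper-quartile scaling, no filter, a filter at a mean of 5 CPM, limma-voom, a 2-fold minimum, other sets of libraries in the fit, replicate number as a block, and each library left out in turn. A fit without the libraries labelled OVCAR3-DDP and a crossed block were added after seeing the data. The test code was checked on simulated data. No replicate pair was a duplicate: the chi-square per gene between replicates ran from 3.88 in the pair labelled OVCAR3-DDP to 31.5 in OVCAR3-WT.

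From each list of other genes, up to 2 per direction with the largest absolute log2 fold change among those that passed, with at least 10 CPM in the higher group, could be named. Of the genes that this rule picks, 1 is not reported here. Likeness was ranked by Pearson's r of log2(CPM + 1) after centring. A range of adjusted p over alternatives takes in every tool run. All intervals come from the fits. Tables were read with pandas 2.3.3 and numpy 2.4.6 in Python 3.11.15, and plots drawn with matplotlib 3.10.9.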

Additional observations from a re-analysis of the deposited data

Results flagged for a closer look

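The difference of DDP from WT libraries was unlike in the comparisons labelled OVCAR3 and A2780 for 8 of the 10 genes by a direct edgeR test of the difference (OVCAR3 change minus A2780 change, log2). For CDT1 it was 1.59, for PCNA −1.04, MCM6 −0.98 and CDC6 −0.94. MCM4 was −0.53, MCM7 −0.44, MCM5 −0.40 and MCM3 −0.31, whose call was lost under 14 alternatives. All rest on the libraries labelled OVCAR3-DDP, whose epithelial markers summed to 540.3 to 577 CPM against 4045 to 4460 CPM in OVCAR3-WT; the part of that difference in these values was not tested. In shNC, which carries the same resistant label, CDT1 was also higher than in OVCAR3-WT (log2 1.40) and MCM6 and PCNA lower (−0.69 and −0.94), while MCM3 was lower (−0.37) where the libraries labelled OVCAR3-DDP were higher (0.30).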

How the results depend on the processing

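Across 100 pairs of gene and comparison, 53 kept their call and sign under every alternative other than the 2-fold rule. That rule left 1 of the 10 genes called for OVCAR3-DDP over OVCAR3-WT, 0 for A2780-DDP over A2780-WT, 2 for the difference between lines, 6 for OVCAR3-WT over A2780-WT, 1 for shNC over OVCAR3-WT, 1 for shNC over OVCAR3-DDP and 0 for each hairpin comparison (edgeR calls with a fold below 2 are counted in the report). With sh2, 2 genes passed with the 5 CPM filter, 3 with the DESeq2 Wald test and 6 with the compared groups alone. For the mean of both hairpins 1 passed with upper-quartile scaling, no filter or the replicate block, and 3 with the 5 CPM filter or the Wald test. For sh2 over sh1, 2 passed with no filter, 5 CPM, all 14 libraries or the crossed block, 3 with the Wald test and 0 with the compared groups alone. Leaving out 1 library gave 6 to 9 genes for OVCAR3-DDP over OVCAR3-WT, 7 to 10 for A2780-DDP over A2780-WT, 5 to 8 for the difference between lines, 9 to 10 for the parental lines, 0 to 6 for sh1 and for sh2, 0 to 7 for their mean, 0 to 4 for sh2 over sh1, 7 to 8 for shNC over OVCAR3-WT and 7 to 9 for shNC over OVCAR3-DDP. The cause of these changes was not tested.

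Replicate numbers did not pair the samples: same-numbered deviations correlated between −0.355 and 0.074 for single comparisons, and between −0.283 and 0.555 among the 4 groups of the line difference, not every pair being over 0.1. With the replicate block 8 genes passed for OVCAR3-DDP over OVCAR3-WT, 9 for A2780-DDP over A2780-WT, 7 for the line difference (MCM3 lost, edgeR adjusted p = 0.0558), 9 for the parental lines, 1 each for sh1, sh2 and sh2 over sh1, 7 for shNC over OVCAR3-WT and 9 for shNC over OVCAR3-DDP. The crossed pairing gave 8, 9, 9 and 7 for OVCAR3-DDP over OVCAR3-WT, A2780-DDP over A2780-WT, the parental lines and shNC over OVCAR3-WT.

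No call turned its direction. Among values that did not pass, signs turned as follows. For MCM10 in the line difference, log2 became 0.00894 with DESeq2 size factors, 0.0932 with upper-quartile scaling, 0.0224 with no filter, 0.0783 at 5 CPM, 0.00547 with the Wald test and 0.0363 with all 14 libraries. For MCM2 with sh2 it became −0.00133, −0.0196, −0.00122 and −0.0148 with DESeq2 size factors, upper-quartile scaling, the Wald test and all 14 libraries. For MCM4 over both hairpins it became −0.00939 with upper-quartile scaling and −0.0129 with all 14 libraries. For MCM5 in shNC over OVCAR3-WT it became 0.0109 with upper-quartile scaling and 0.00923 at 5 CPM. For MCM6 in shNC over OVCAR3-DDP it became 0.0535, 0.0395, 0.0714, 0.0136, 0.0522 and 0.046 with DESeq2 size factors, upper-quartile scaling, no filter, 5 CPM, the Wald test and the compared groups alone. Leaving out 1 library gave these ranges of log2 for values whose sign turned: −0.066 to 0.0909 for MCM10 in the line difference, −0.0355 to 0.312 for CDT1 between the parental lines, −0.0278 to 0.00653 for MCM6 in shNC over OVCAR3-DDP and −0.00979 to 0.0267 for MCM2, shNC vs OVCAR3_WT. With sh1 they were −0.26 to 0.094 for MCM2, −0.307 to 0.0387 for MCM5 and −0.218 to 0.13 for MCM7, and with sh2 −0.0158 to 0.0248 for MCM2 and −0.0739 to 0.00975 for CDT1. Over both hairpins they were −0.131 to 0.0494 for MCM2, −0.0236 to 0.0438 for MCM4 and −0.176 to 0.000189 for MCM5. For sh2 over sh1 they were −0.0893 to 0.258 for MCM2, −0.0769 to 0.263 for MCM5 and −0.27 to 0.0714 for MCM7. Upper-quartile scaling also moved the median of all genes by 0.10 in OVCAR3-DDP over OVCAR3-WT and by 0.11 in the line difference. TMM scaling moved 46 of 70 group levels by more than 1 SD. With 2 libraries a group, differences within the intervals given cannot be shown at this depth of replication.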
